A study of Mus musculus with 8 samples.

Results

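Intronic m6A peaks were the m6A peaks of mouse bone marrow mesenchymal stem cells (MSCs) whose summit, the base of highest signal, lay inside a gene but in no exon of any annotated transcript. Summits were placed on GENCODE vM1 gene models of the mm9 genome build. Of the 10160 peaks deposited for these cells, 532 were intronic, or 5.24% (95% Wilson interval 4.82% to 5.69%), while 8865 lay in an exon (87.3%) and 763 between genes (7.51%). The 532 peaks lay in 395 genes, here called host genes. Most hosts had 1 intronic peak (336 genes), 35 had 2, 7 had 3 and 17 had 4 or more.

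All samples were C57BL/6 bone marrow MSCs kept for 2 days in osteogenic medium with 50 ug/ml ascorbic acid, 5 mM beta-glycerophosphate and 100 nM dexamethasone. For the m6A assay, 2 inputs and 2 immunoprecipitates with an m6A antibody came from wild-type cells, and the 4 samples share 1 peak list, with no value per replicate. A second assay, RNA-seq, compared 2 wild-type (WT) samples with 2 conditional knockouts of Mettl3, labelled cKO (Prx1-Cre;Mettl3fl/fl). Prx1-Cre acts in limb mesenchyme, so cells of other origin in a marrow culture can keep the gene. The purpose was to map m6A in MSCs and to find the RNAs that change when the enzyme is lost.

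m6A is a methyl group placed on adenosines of RNA, mostly by a complex whose catalytic subunit is METTL3 and which prefers an A between a purine and a C. In mature mRNA it is best known near stop codons and in long exons. Introns are cut out of the pre-mRNA and degraded, so poly(A)-selected RNA, as used here, should hold few of their sequences. The values here describe which kinds of sequence lay under the 532 summits.

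The peaks fell into 3 classes, defined after their values were seen. The first, exon-overlapping, had its summit in an intron but at least 1 base of the peak in an exon (244 peaks, 45.9%). The second, multi-copy, had no exon base, and the 31-base words around its summit occurred 2 or more times in mm9 at the median (167 peaks, 31.4%). The third, single-copy, had no exon base, and these words occurred fewer than 2 times at the median (121 peaks, 22.7%). Only exact copies were counted, so diverged copies of a repeated sequence can fall in this class. The sequences shown next carry the contrast between the first and the third class. Each is the mm9 sequence of the summit and 50 bases on either side of it, written 5′ to 3′ on the strand of the host gene, with each GGAC, the core of the m6A motif, in capitals.

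Exon-overlapping peaks of high enrichment, or in genes of the lists described further on, are shown so that the intron's end can be seen close after the summit at base 51. The first exon base is base 55 in Fam25c, 65 in Krt5, 58 in Krt77, 52 in Cstf1, 56 in Fn1, 72 in Smarcc2 and 53 in Rbm39. In all 7 the intron's last letters before it are ag, the usual end of an intron.
Fam25c, chr14:35165217-35165317, minus strand: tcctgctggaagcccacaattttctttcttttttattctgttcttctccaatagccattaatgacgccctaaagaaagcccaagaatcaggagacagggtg
Krt5, chr15:101540273-101540373, minus strand: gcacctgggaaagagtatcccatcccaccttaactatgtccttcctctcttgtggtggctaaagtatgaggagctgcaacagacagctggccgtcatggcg
Krt77, chr15:101691497-101691597, minus strand: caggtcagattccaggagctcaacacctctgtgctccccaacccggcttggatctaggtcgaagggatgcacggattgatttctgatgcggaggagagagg
Cstf1, chr2:172205809-172205909, plus strand: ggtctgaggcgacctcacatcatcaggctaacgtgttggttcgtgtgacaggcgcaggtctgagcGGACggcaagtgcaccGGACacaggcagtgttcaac
Fn1, chr1:71662080-71662180, minus strand: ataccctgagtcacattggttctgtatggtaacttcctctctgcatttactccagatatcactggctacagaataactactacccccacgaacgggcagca
Smarcc2, chr10:127921282-127921382, plus strand: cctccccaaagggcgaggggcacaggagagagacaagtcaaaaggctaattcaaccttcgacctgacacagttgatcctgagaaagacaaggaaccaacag
Rbm39, chr2:155998710-155998810, minus strand: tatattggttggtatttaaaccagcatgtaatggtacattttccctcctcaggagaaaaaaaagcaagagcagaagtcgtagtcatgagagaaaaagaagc

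The next 4 sequences hold no annotated exon base. They were chosen after their values were seen, as examples of a peak in a long reading frame (Zc3h11a, Raph1), a peak early in a first intron (Sfswap) and a peak just after a cluster of microRNA hairpins (2010111I01Rik).
Zc3h11a, chr1:135554029-135554129, minus strand: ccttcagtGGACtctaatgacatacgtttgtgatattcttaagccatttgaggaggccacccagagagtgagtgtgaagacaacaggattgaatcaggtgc
Raph1, chr1:60545247-60545347, minus strand: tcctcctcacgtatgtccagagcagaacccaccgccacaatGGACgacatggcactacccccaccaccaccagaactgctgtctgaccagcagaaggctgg
Sfswap, chr5:130008446-130008546, plus strand: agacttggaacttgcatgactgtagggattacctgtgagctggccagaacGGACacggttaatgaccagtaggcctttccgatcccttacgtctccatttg
2010111I01Rik, chr13:63403832-63403932, plus strand: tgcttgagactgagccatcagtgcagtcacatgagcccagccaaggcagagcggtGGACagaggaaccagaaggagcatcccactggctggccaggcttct

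Fold enrichment is the peak caller's ratio of immunoprecipitate over background at the summit, and pileup is the number of fragments stacked there. Intronic peaks had a median fold enrichment of 5.34 (95% interval of the median 5.13 to 5.78), above the 3.84 of exonic peaks (3.80 to 3.88) and below the 5.97 of peaks between genes. Their median pileup was 31 fragments, against 65 for exonic peaks and 22 between genes, so the intronic peaks were the more enriched and the lower ones. The median −log10 q-value was 11.8 against 14.6 for exonic peaks. Their median length was 233 nt, against 309 nt. All of these intervals cover counting error only, since the list has no replicates.

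**Figure D1:**
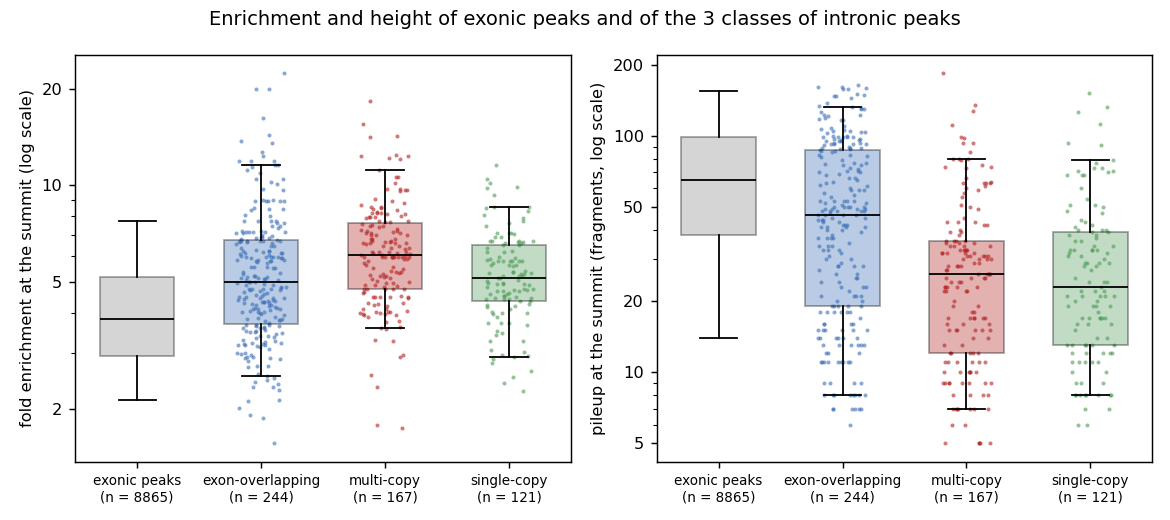
Fold enrichment (left) and pileup in fragments (right) at the summit, both on log scales, for the 8865 exonic peaks and the 3 classes of intronic peaks. Boxes show quartiles with the median, whiskers the 5th and 95th percentiles, and points single intronic peaks. The multi-copy class has the highest median fold, 6.04, and the exon-overlapping class the highest median pileup among intronic peaks, 46.

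The classes differed in height more than in enrichment. Median fold enrichment was 5.00 in exon-overlapping peaks (4.64 to 5.52), 6.04 in multi-copy peaks (5.88 to 6.45) and 5.15 in single-copy peaks (4.76 to 5.60). Median pileup was 46, 26 and 23 fragments, so the exon-overlapping peaks rose highest, though still under exonic peaks. Of all intronic peaks, 34.2% had 2 or more copies of their summit sequence and 25.9% had 10 or more, against 5.55% and 0.553% of exonic peaks. Of the 182 with 2 or more, 167 made up the multi-copy class, which is defined by its copies, while exon-overlapping peaks had 6.15% and 0.820%. Peaks between genes went further, with 59.8% and 51.6%. By annotation, 497 of the 532 lay in protein-coding genes, 25 in lincRNAs, 6 in other processed transcripts and 4 in pseudogenes. Within them, 395 lay in introns of the coding region, 93 in introns that split the 5′ untranslated region and 4 in introns of the 3′ untranslated region, with 40 in noncoding transcripts.

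Exon-overlapping summits sat at the end of the intron, close before the next exon. In the direction of the gene, the exon after the summit began within 10 nt for 67 of the 532 intronic peaks (12.6%) and within 50 nt for 174 (32.7%). The exon before had ended within 10 nt of only 2 summits (0.376%) and within 50 nt of 10 (1.88%). If each summit could have been at any base of its own stretch between exons, 1.10% and 5.50% would have been that near on either side. The crowding was therefore on the side of the exon that follows, and the side of the exon before held fewer summits than even placement gives. Among the 244 exon-overlapping peaks the exon after was the nearer in 214 (87.7%, 83.0% to 91.3%), with 103 of 120 on plus-strand genes and 111 of 124 on minus-strand genes. Both strands gave the same side, so the asymmetry follows the direction of the gene and not that of the chromosome.

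**Figure D2:**
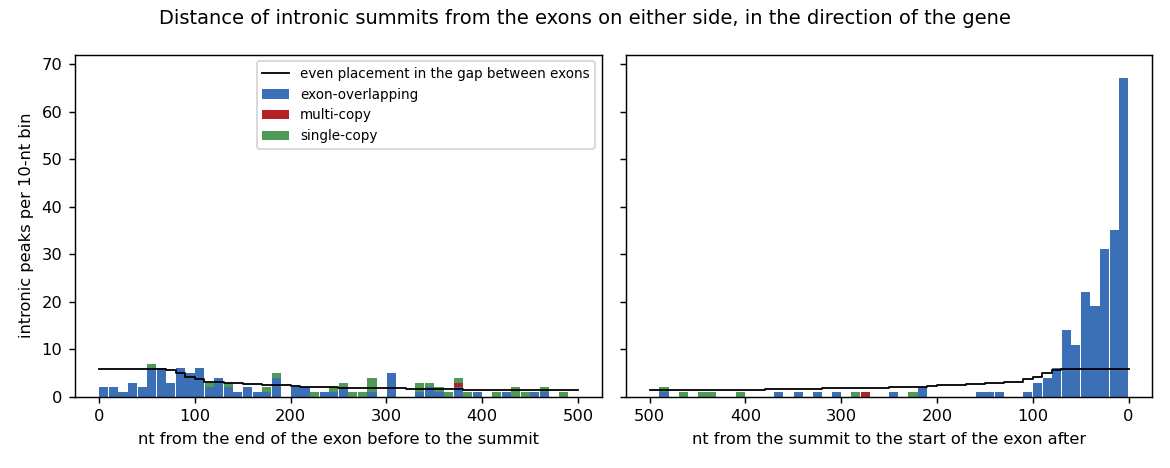
Intronic summits per 10-nt bin, by distance in nt from the end of the exon before (left) and to the start of the exon after (right), stacked by class, with the black line giving the number under even placement in each peak's stretch between exons. The tallest bin, with 67 peaks, is the 10 nt just before the exon after.

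These 214 summits lay a median of 21.5 nt before the exon (18 to 26 nt), and a median of 54 bases of their 212.5-nt peaks were exonic. The exon edge they faced was an annotated splice acceptor in 203 of the 214 (94.9%). In the other 11 it was the start of a transcript, as in Dgkz, a diacylglycerol kinase, where a shorter transcript begins 16 nt after the summit. Of the 207 with an exon within 100 nt, 198 had AG as the last bases before the exon (95.7%).

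The exonic peaks around them leaned the same way. Of the 2896 exonic peaks with a summit in an internal exon, 926 (32.0%) reached back into the intron before and 52 (1.80%) into the intron after. Reaching into the intron before alone was seen for 885 and into the intron after alone for 11. Summits were also more often in the first 51 bases of such an exon (217) than in its last 51 bases (35). At the edge that the rule draws, 14 intronic summits lay 1 nt from an exon, with a median fold enrichment of 4.99, and 22 exonic summits lay on the first base of an internal exon, with 3.13. Within 10 nt the counts were 70 and 90, with medians of 4.19 and 3.21. On both sides of the edge these are values on which the rule divides the peaks, given as a description.

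The motif was more frequent in the exon than in the intron. In the 207 peaks with the next exon within 100 nt, the first 100 exon bases held a GGAC in 91 (44.0%, 37.4% to 50.8%) on the gene strand and in 42 (20.3%) on the opposite strand. The last 100 intron bases held one in 47 (22.7%) on the gene strand and 62 (30.0%) on the opposite strand. In Cstf1, the shown window has GGAC only on the exon side, with the A at bases 68 and 84. The other 6 windows shown hold none.

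Around exonic summits, GGAC was most frequent on the gene strand in the 25 nt that start at the summit (27.2%). Each strand was read in its own 5′ to 3′ direction, so bases before the summit on the opposite strand come after it on the gene strand. On the opposite strand, read that way, GGAC was least frequent in the 25 nt before the summit (6.11%), with 7.92% to 9.98% in the other bins. Averages were taken over the 4 bins of 25 nt that follow the summit in each strand's own direction. Of exonic peaks, 22.5% had the motif in a bin on the gene strand and 9.11% on the opposite strand. The values of each pair thus come from different sides of the summit. For single-copy intronic peaks the averages were 20.0% and 13.4%, and for exon-overlapping peaks 13.9% and 10.0%. For multi-copy peaks they were 17.5% and 16.0%, the least difference of the 4. From 200 to 300 nt before the summit, all groups had between 7.48% and 10.5% on either strand.

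**Figure D3:**
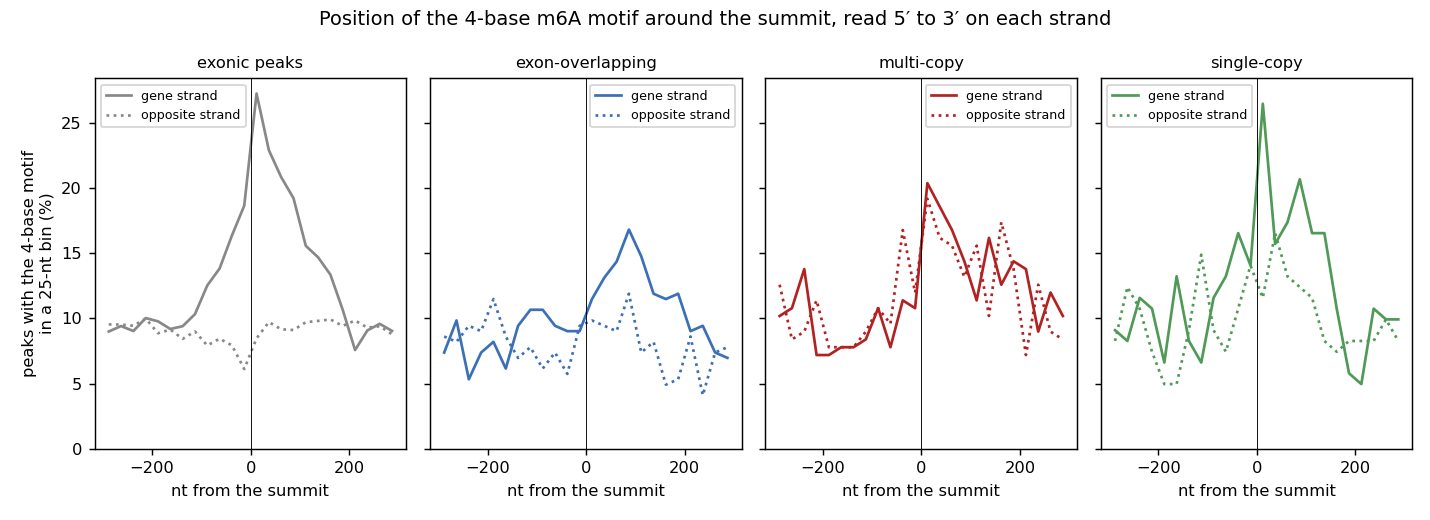
Share of peaks with a GGAC in each 25-nt bin, by distance of its A from the summit in nt, read 5′ to 3′ on the gene strand (solid) and on the opposite strand (dotted). The gene-strand line rises just after the summit in exonic and single-copy peaks, later in exon-overlapping peaks, and on both strands in multi-copy peaks.

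Over whole peaks, 68.8% of the intronic peaks held a GGAC on the gene strand (64.7% to 72.6%) and 62.0% on the opposite strand, against 88.0% and 67.3% of exonic peaks. The windows of equal length that adjoin the intronic peaks held one in 64.2%, so the motif's excess over its surroundings was 4.61 percentage points (95% interval −0.40 to 9.61), and that of the gene strand over the opposite strand was 6.77 (0.93 to 12.6). Against adjoining windows, single-copy peaks had the largest difference, with 77.7% in the peak and 64.9% in the windows. Exon-overlapping peaks had 63.5% and 56.8%. Multi-copy peaks had 70.1%, under the 74.6% of their adjoining windows. Windows 1000 nt away without exon bases held a GGAC in 60.8% for single-copy, 46.7% for exon-overlapping and 73.7% for multi-copy peaks. Against these windows, single-copy and exon-overlapping peaks differed by similar amounts, and the excess over all intronic peaks was 8.73 percentage points. Exon-overlapping peaks hold exon bases, which these windows lack, so their part of these differences also sets exon against intron sequence. Within 50 nt of the summit, single-copy peaks held the motif in 52.1% (43.2% to 60.8%) on the gene strand, in 38.8% on the opposite strand and in 29.8% of adjoining windows. Exonic peaks had 61.6% and 27.4%. The wider set of 18 five-base sequences (A, G or T, then a purine, A, C, and any base but G) was in 97.0% of intronic peaks and 98.4% of the windows, too common to separate them. Median GC content was 51.5% in intronic peaks and 49.8% in the adjoining windows.

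Multi-copy peaks were often copies of each other. By sequence alignment of at least 100 nt at 80% identity or more, 144 of the 167 (86.2%) fell into 17 groups of alike peaks. Some single-copy peaks fell into these groups too, as in Herc6, whose group held peaks with 1 to 11453 exact copies. The group with the most host genes and 1 peak in each held 19 peaks in 19 genes, here called anchor peaks. Each anchor aligned to the one in Gm20388, the anchor of highest −log10 q-value, at 96.3% to 100% identity, and had 8 to 56 copies in mm9.

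From the anchors, further peaks followed in the same direction along the repeated sequence at 17 of the 19 loci, and Camk2b and Coro2b had the anchor alone. Together the 19 loci held 74 intronic peaks. Distances were alike in part: of the group of alike peaks that holds the most enriched one, the farthest peak lay 3958 to 4071 nt from the anchor in 8 loci and 1659 to 3661 nt in 4 others. Median enrichment was higher at greater distance from the anchor. The anchors had a median fold enrichment of 4.75, the 16 peaks at 500 to 1500 nt 5.90, the 19 at 1500 to 2800 nt 6.63, the 10 at 2800 to 3500 nt 6.85 and the 10 at 3500 to 4500 nt 11.4. In Pkd1l1, a polycystin-family gene, the 6 peaks had fold enrichments of 6.04, 5.50, 5.00, 7.54, 6.17 and 18.4, the last one 4042 nt from the anchor. In Abr, the 6 had 4.03, 6.59, 6.63, 6.59, 6.31 and 12.3, the last at 3978 nt. These loci share their sequence, so reads from one can be counted at another, and the 19 are not independent. Because a fragment of a repeated sequence can be placed at any copy, the peaks also do not show which copy was transcribed.

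**Figure D4:**
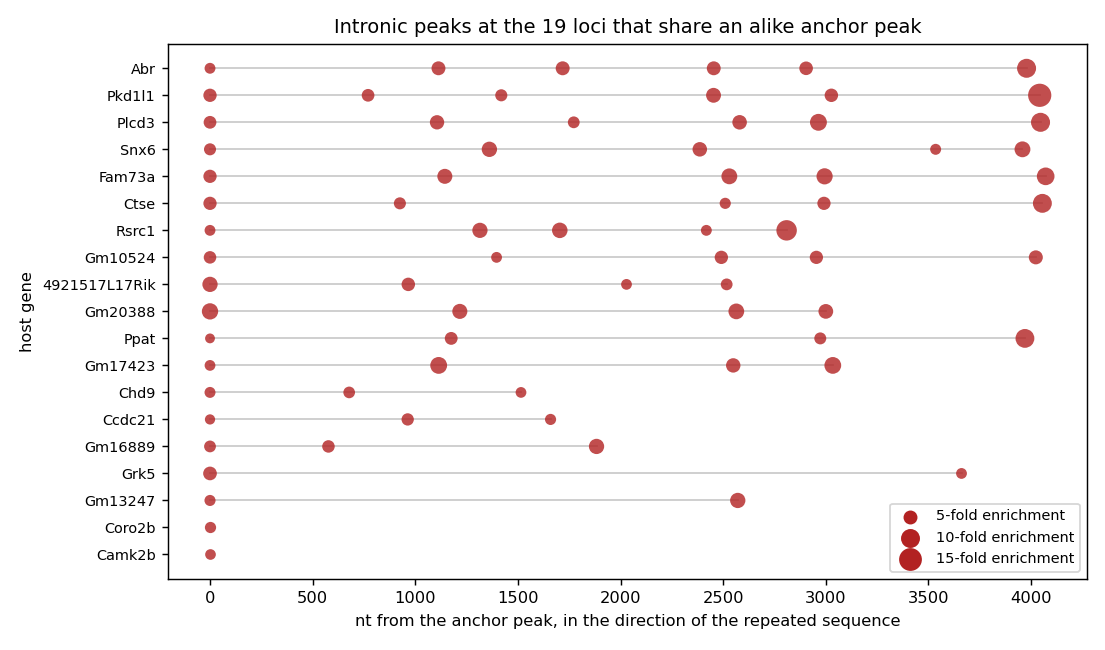
Distance in nt of each intronic peak from the anchor peak, in the direction of the repeated sequence, for the 19 host genes with an alike anchor, with the area of a point in proportion to its fold enrichment. The peaks fall near the same distances in many of the genes, though not in all, and those 3500 to 4500 nt away are among the most enriched, up to 18.4-fold.

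The repeated sequence had longer stop-free frames and more of the motif on 1 strand. Whether it encodes protein was not tested. From the anchor to 6000 nt beyond, the longest stop-free frame on the layout's own strand was 912 to 3603 nt, with 13 of 19 loci at 3000 nt or more. On the other strand it was 360 to 504 nt. That stretch held a median of 52 GGAC on the layout's strand (26 to 56) and 25 on the other (19 to 28), with more on the layout's strand at all 19 loci. Each of the 74 peaks held a GGAC on the layout's strand, and 42 (56.8%) on the other. The layout ran with the host gene in 6 loci and against it in 13. The strand of the host gene was therefore mostly not the strand with more of the motif, which bears on the multi-copy values given by gene strand above.

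By the rule for named genes, every gene with 4 or more intronic peaks is named. There were 17. Besides Ctse, Pkd1l1 and Abr, the multi-copy ones were Plcd3, a phospholipase C (6 peaks, 4.74- to 12.4-fold), Fam73a (5, 6.00 to 10.6), Gm10524 (5), Rsrc1, a splicing-related gene (5, 4.02 to 14.3), Snx6, a sorting nexin (5), 4921517L17Rik, Gm17423, Ppat (4 each), Galnt11, an O-glycosylation enzyme (4, 5.88 to 12.4), Cd200r3 (4, 6.79 to 15.5) and Lphn3 (4, 5.32 to 9.63). Gm16889 had 4 multi-copy peaks and 1 exon-overlapping one. Only Gm20388, with 23 peaks, and Pcdhgc5, with 10, held single-copy peaks as well.

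Single-copy peaks often lay in a long reading frame on the strand of the gene. A stop-free frame of 1000 nt or more covered the summit of 31 of the 121 on the gene strand (25.6%, 18.7% to 34.1%) and of 5 on the opposite strand (4.13%, 1.78% to 9.31%). In exon-overlapping peaks the counts were 8 and 4 of 244. In multi-copy peaks they were 37 and 59 of 167, with the opposite strand the higher. The 31 lay in 12 genes, and 29 of them held a GGAC, or 93.5%, against 72.2% of the other 90 single-copy peaks. On the opposite strand the shares were also higher in the 31, with 74.2% against 60.0%. Among the 31, 11 lay in 1 frame of Gm20388 and 6 in Pcdhgc5. Several of the peaks share 1 frame, so they are not 31 independent observations.

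**Figure D5:**
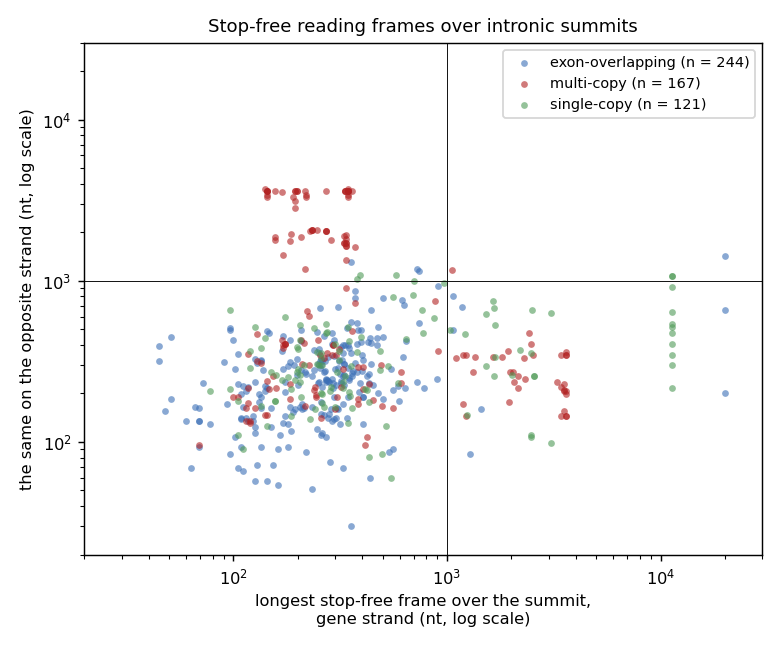
Longest stop-free reading frame over each intronic summit in nt on the gene strand (x) and on the opposite strand (y), both on log scales, coloured by class, with lines at 1000 nt. Single-copy peaks with a long frame lie to the right, 11 of them in 1 frame of 11370 nt, while multi-copy peaks lie in both arms.

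The longest run of single-copy peaks was in Gm20388, a gene model of 4.43 Mb on chromosome 8 that spans 156 other genes, 72 of them protein-coding. Within 9407 nt (mm9 chr8:124783854-124793260) lay 11 of its peaks, all inside 1 stop-free frame of 11370 nt. The opposite strand's frames there were 216 to 1065 nt. Their fold enrichment ran from 2.42 to 4.73, and all 11 held a GGAC. The nearest gene model, Gm22, lies 209 nt away, and RefSeq gives that name as a synonym of Zfp469, a zinc finger gene. These peaks are intronic only because Gm20388 spans them. Without host genes over 1 Mb, an alternative added after seeing the data, the intronic share of all peaks was 4.97%.

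Pcdhgc5, of the clustered gamma-protocadherins, cell-adhesion genes in which many alternative first exons are joined to shared last exons, held 10 peaks over 83367 nt. Each lay in a stop-free frame of 2316 to 2559 nt on the gene strand, against 108 to 663 nt on the other. They were 4.60- to 9.78-fold enriched and all held a GGAC. Of the 10, 9 were alike to another at 80.3% to 99.3% identity. The vM1 models used here name no other gene of that cluster, so the stretches between its exons count as introns.

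In Zc3h11a, a zinc finger gene, 2 peaks lay in its intron where RefSeq places Zbed6, a transcription factor gene whose coding region sits in an intron of its host. Their summits were 1274 and 3383 nt after the RefSeq start of Zbed6, a span of 5007 nt, with fold enrichments of 3.40 and 5.39. A stop-free frame of 3054 nt covered both, and vM1 has no model for Zbed6. The 2 summits also lay within the RefSeq span of Atp2b4 on the same strand, 94136 and 96245 nt after its start (span 98386 nt). Raph1, an actin-regulating gene, had a peak with 5.37-fold enrichment and a pileup of 93 in a frame of 2019 nt, against 261 nt on the other strand. Summits also lay within the span of another RefSeq gene, counted from its start, in Wwox (Gm16116, opposite strand, 11.6-fold) and Layn (Gm32681, 5.92-fold), among other host genes. In Gm20388, 3 more lay within the spans of Mthfsd, A330074K22Rik and 2810013P06Rik. The peaks have no strand, so the gene that gave the RNA was not resolved where genes of both strands overlap. Nor was it resolved where genes of the same strand overlap, as with Zc3h11a, Zbed6 and Atp2b4.

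Other single-copy peaks lay soon after an exon, in a first intron or a later one. The exon before had ended within 500 nt of 26 of the 121 summits (21.5%, 15.1% to 29.6%), where even placement gives 8.95%, and the exon after began within 500 nt of 7 (5.79%). By definition the single-copy class holds no peak with an exon base, and the exon after began within 200 nt of 0 of its summits. Its low share on that side therefore follows in part from the class rule, and even placement also counts positions the rule forbids. The sides of this class cannot be compared with those of the exon-overlapping class. The exon before had ended within 1000 nt of 36 of the single-copy summits, and 19 of these lay in a first intron. That exon was the nearest before the summit in any transcript of the gene, so it need not be the first exon. The 19 lay 58 to 926 nt after it, with fold enrichments of 3.50 to 10.5. They included Foxo3, a forkhead transcription factor (6.40-fold, 383 nt after the exon), Ipmk, an inositol kinase (10.5-fold, 246 nt), Ell2, an elongation factor (6.59-fold, 466 nt), Klf3, a Kruppel-like repressor (4.90-fold, 627 nt) and Airn, a long noncoding RNA antisense to Igf2r (5.28-fold, 289 nt). These 5 were chosen after their values were seen. On the gene strand 14 of the 19 held a GGAC and on the opposite strand 15. Ipmk had none on the gene strand and 11 on the opposite strand. Sfswap, a splicing regulator, had 2 peaks in its first intron, 450 and 1025 nt after the exon, with 4.71- and 10.2-fold enrichment.

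Over all classes, 44.7% of intronic summits lay in the first intron (40.6% to 49.0%), where even placement over each gene's introns gives 37.4%. The last intron held 13.9% against 13.6%. The first-intron share was 36.9% in exon-overlapping peaks against 31.4%, 52.1% in multi-copy peaks against 43.0%, and 50.4% in single-copy peaks against 41.9%. When each host was counted once, by its peak of highest −log10 q-value, the share was 40.0% against 32.6%.

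One peak lay beside a cluster of microRNA genes. In 2010111I01Rik, the host of Mir23b, Mir27b and Mir24-1, a single-copy peak had its summit 2017, 1790 and 1299 nt after the end of those hairpins, on the same strand. It had 152 fragments at the summit, the highest pileup of any single-copy peak, with 3.98-fold enrichment and a −log10 q-value of 39.8. It held 4 GGAC on the gene strand and 1 on the other. The host was measured at 34.1 and 37.6 TPM in WT and 39.2 and 40.2 TPM in cKO. In Sap18, a corepressor subunit gene, the summit lay at the base just before the hairpin of Mir3077 and 3 nt before the next exon.

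Of the 10 highest fold enrichments, 4 were in keratin genes. By the rule for named genes the 10 were Fam25c (22.4), Krt77 (20.0), Krt14 (20.0), Pkd1l1 (18.4), Krt5 (16.2), Cd200r3 (15.5), Krt79 (14.3), Rsrc1 (14.3), Vmn2r87 (14.2) and Dgkz (13.7). Krt5 and Krt14 encode the paired keratins of basal epidermal cells, and Krt77 and Krt79 other keratins of skin. These 4 keratin genes carried exonic peaks as well, 5 in Krt5, 3 in Krt77, 2 in Krt14 and 1 in Krt79. Of the 10 hosts, 7 had 3 counts or fewer in every RNA-seq library. Fam25c, Krt77 and Krt79 had 0 in all 4, Krt14 had at most 1 and Krt5 at most 2. Rsrc1, with 1098 to 1499 counts, and Dgkz, with 5965 to 8875, were well measured.

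Such hosts were more frequent than among genes with exonic peaks. Of the 383 hosts matched to the RNA-seq table, 38 had 3 counts or fewer in every library (9.92%, 7.31% to 13.3%), against 72 of 5649 genes with an exonic peak (1.27%, 1.01% to 1.60%). The 38 held 56 peaks, 30 exon-overlapping, 17 multi-copy and 9 single-copy, with a median fold enrichment of 6.99. Among the 38 hosts, 16 also had an exonic peak. The keratin peaks had pileups of 41 in Krt14, 42 in Krt5, 30 in Krt77 and 37 in Krt79, near or above the intronic median of 31. The m6A libraries and the RNA-seq libraries are different samples, and levels in the m6A inputs are not in the files used here. Whether the cells differed was not tested.

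By −log10 q-value, the 10 highest peaks were in Galnt11 (77.3), Rsrc1 (75.0), Pkd1l1 (67.7), Plcd3 (65.6), Ctse (65.0), Rbbp6 (60.6), Abr (53.6), Gm14221 (50.4), Fam73a (47.9) and 4930430E12Rik (45.3). All but Rbbp6 and 4930430E12Rik were multi-copy. Rbbp6, part of the pre-mRNA cleavage machinery, had its summit 19 nt before an annotated transcript start, with 147 fragments and 6.14-fold enrichment.

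Of the genes in the lists kept for this tissue, 333 are in vM1, of which 14 had an intronic peak and 193 an exonic one. That is 7.25 genes with an intronic peak for each 100 with an exonic one, close to the 6.91 over all genes (395 and 5717), so the counts that follow describe the members and set no list apart. Of 19 annotated genes of the m6A machinery, 2 had an intronic peak and 12 an exonic one. Ythdf3, a cytoplasmic m6A reader, had a 4.49-fold summit 3 nt before its next exon, and Igf2bp2, an RNA-binding reader, a single-copy peak of 2.63-fold. Of 50 splicing regulators, 2 had one and 15 an exonic one, and both intronic summits, in Rbm39 (2.90-fold) and Mbnl1 (2.83-fold), lay 2 nt before an exon. Of 22 cleavage and polyadenylation factors, 2 had one, Rbbp6 and Cstf1 (6.30-fold, 1 nt before the exon), and 10 an exonic one.

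Of 72 histone and chromatin modifiers, 4 had an intronic peak and 53 an exonic one. They were Smarcc2, a chromatin-remodelling subunit (3.13-fold, 21 nt before the exon), Chd7 (9.03-fold, 45 nt), the corepressor Ncor1 (6.14-fold) and Chd9, whose 3 peaks were part of the repeated layout. Of 61 osteoblast regulators and matrix genes, 4 had one and 38 an exonic one. Postn, Fn1 and Col3a1 encode abundant matrix proteins of mesenchymal cells. Their summits lay 6 nt before an exon in Postn (3.47-fold), 5 and 4 nt in Fn1 (3.19- and 2.98-fold) and 65 nt in Col3a1 (2.13-fold), with pileups of 157, 160, 161 and 103. Runx3, a transcription factor of the Runx family, had a single-copy peak of 5.80-fold with a pileup of 8. None of the 26 adipocyte regulators (14 with an exonic peak) and none of the 54 genes of TGF-beta, BMP, Wnt and Notch signalling (41 with an exonic peak) hosted an intronic peak. None of the 31 annotated markers of macrophages, neutrophils, endothelium, erythroid and stromal cells had one, and 11 had an exonic peak.

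In RNA-seq, 15327 genes were tested for a difference between cKO and WT. The libraries held 23948200 to 34069223 estimated counts. Mettl3 itself had 596 and 478 counts in WT and 424 and 520 in cKO, a log2 fold change of −0.03 (adjusted p = 0.824 in edgeR, quasi-likelihood, with the Benjamini-Hochberg method). Gene totals do not show which exons were lost, so this does not check the labels, and the groups are the libraries labelled cKO and WT. The cells carried stromal markers (summed 801 to 863 TPM, with Lepr under 1 TPM in every library) and, at a far higher level, macrophage markers. The latter summed to 17917 and 23468 TPM in WT and 25698 and 25867 TPM in cKO, with all of them at 1 TPM or more. Neutrophil markers summed to 17.2 and 19.2 TPM in WT and 5.11 and 2.37 TPM in cKO, with 4 of the 5 under 1 TPM. Endothelial markers summed to 1.23 and 1.33 TPM in WT and 9.34 and 7.92 TPM in cKO, with 3 of 5 under 1 TPM, and erythroid ones to at most 0.5 TPM. The macrophage, neutrophil and endothelial sums thus each differed between the groups without overlap. The part of these cells in the differences between groups was not tested, and in bulk RNA fewer cells of a type cannot be told from less RNA per cell.

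At an adjusted p under 0.05, 125 of the 333 hosts tested differed (37.5%, 32.5% to 42.9%), against 30.5% of all genes. Higher in cKO were 77 (23.1%), against 13.7% of all genes (2100 genes), and lower 48 (14.4%), against 16.8% (2577 genes). On log2(TPM + 0.1) with limma the split was 69 higher and 22 lower among hosts, and 1684 higher and 1258 lower over all genes. Without cKO replicate 1 the hosts split into 21 higher and 23 lower, and without cKO replicate 2 into 20 and 23, beside 735 and 1169, and 724 and 1143, over all genes. Among genes with an exonic peak, 22.9% were higher and 13.3% lower. The median log2 fold change was 0.09 in the hosts, 0.09 in genes with an exonic peak and −0.00 over all genes tested. The hosts' shares lay close to those of the exonic-peak genes, and a difference between the lists was not tested. The p-values measure the spread between 2 samples a group, which no label says are separate animals, and a left-out library moved the hosts' count from 43 to 233, as given in the closing section.

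An exonic peak was also present in 194 of the 395 hosts (49.1%). Of the 174 tested with both kinds, 53 were higher (30.5%) and 18 lower (10.3%). Of the 159 with an intronic peak alone, 24 were higher (15.1%) and 30 lower (18.9%), close to the background. The difference between these hosts was not tested. Hosts of single-copy peaks were called in 30 of 77 (39.0%, 28.8% to 50.1%). Those of exon-overlapping peaks were called in 74 of 196 (37.8%, 31.3% to 44.7%) and those of multi-copy peaks in 22 of 63 (34.9%, 24.3% to 47.2%). Beside these, 30.5% of all genes and 36.2% of genes with an exonic peak were called, and the classes were not tested against each other. Median TPM was 34.8 in hosts of exon-overlapping peaks, 13.3 in those of single-copy and 4.52 in those of multi-copy peaks.

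The largest rise among hosts was in Nr2f2, an orphan nuclear receptor of mesenchyme. It was at 2.14 and 2.59 TPM in WT and 23.0 and 25.3 TPM in cKO, a log2 fold change of 3.14 (SE 0.124, adjusted p = 2.29e-05 by edgeR with Benjamini-Hochberg adjustment). Both cKO samples lay far above both WT samples. Its intronic summit, 5.86-fold, was 1 nt before the next exon. Plat, tissue plasminogen activator, was at 3.30 and 4.94 TPM in WT and 12.2 and 12.2 TPM in cKO, a log2 fold change of 1.47. The other rises were in Ntrk3, a neurotrophin receptor (1.41, from 23 and 14 counts in WT to 43 and 45), Pld4, a myeloid exonuclease (1.35) and Nlrp1b, an inflammasome sensor (1.19). Ntrk3 was at 0.50 and 0.47 TPM in WT and 1.13 and 0.27 TPM in cKO, so its groups overlapped on that scale. In other fits Ntrk3 lost the call with DESeq2 (adjusted p = 0.0769) and Nlrp1b with limma on log2(TPM + 0.1) (adjusted p = 0.0685). Both also lost it in edgeR without either cKO sample, with adjusted p-values up to 0.192 and 0.0644.

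The largest fall was in Pcdhgc5, with 457 and 754 counts in WT and 102 and 62 in cKO, a log2 fold change of −2.74 (adjusted p = 0.00545, edgeR with Benjamini-Hochberg adjustment). It is also the host with 10 single- and multi-copy peaks described above. Mt2, a metallothionein, was at 3032 and 2560 TPM in WT and 695 and 708 TPM in cKO (log2 fold change −2.10, adjusted p = 1.08e-05 by edgeR with Benjamini-Hochberg adjustment). No WT value came near a cKO value. Gm14308 (−2.61), Myh14, a nonmuscle myosin (−2.51), and Acta1, skeletal muscle actin (−2.05), completed the 5 falls. Myh14 rests on 2 to 29 counts a library, and it lost the call with DESeq2 (adjusted p = 0.0672) and in edgeR without WT replicate 2 or either cKO sample (up to 0.168). Gm14308, Acta1, Nlrp1b and Pcdhgc5 have close relatives in the genome, so their counts are uncertain where reads could be split between copies.

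The hosts from the gene lists moved in both directions. Fn1 was at 940 and 685 TPM in WT and 395 and 391 TPM in cKO, a log2 fold change of −1.15, and Postn at 326 and 360 TPM against 248 and 242 TPM, −0.59. Both encode extracellular matrix and both were lower in each cKO sample. Col3a1 was higher, at 276 and 247 TPM in WT and 343 and 347 TPM in cKO (0.30). Chd9 (0.46), Chd7 (0.42), Ncor1 (0.28) and Mbnl1 (0.27) were also higher at an adjusted p under 0.05. In edgeR without either cKO sample, Ncor1, Mbnl1 and Col3a1 lost the call (adjusted p = 0.201 to 0.263), as did Chd7 without cKO replicate 2 (0.196) and Chd9 without cKO replicate 1 (0.0912). Those of Ythdf3 (0.14), Rbbp6 (0.22), Runx3 (−0.19), Smarcc2 (0.08), Cstf1 (0.04), Igf2bp2 (−0.04) and Rbm39 (−0.04) did not pass, and the sign of the last 3 changed in some alternatives. Of the hosts singled out above, Foxo3 was higher (0.52), from 23.1 and 18.8 TPM to 33.2 and 34.3 TPM, and Raph1 lower (−0.52), though its TPM values of 10.1 and 10.2 in WT and 10.7 and 8.66 in cKO overlapped.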

How the data were processed

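The m6A samples and RNA-seq samples were grouped by their labels. Per the labels and the study's methods, 2 ug of poly(A)-selected mRNA was fragmented to about 100 nt, and immunoprecipitated RNA was eluted with free m6A. The submitters' processing notes name HISAT2 2.0.4, TopHat, MACS2, mm9 and mm10. Their roles in each assay, and whether replicates were pooled for peak calling, are not given in the sources used here. The authors deposited 1 peak list with positions, pileup signal, fold enrichment (a ratio) and −log10 q-values, without strand or counts per sample, so its depth is unknown. It was read as mm9. No deposited peaks overlapped. The authors also deposited estimated counts per gene, some not whole and rounded here, and values headed fpkm that sum to the same fixed total in each library and were read as TPM, for 47732 entries, of which 89 have no gene name (0.110% to 0.125% of the counts) and were left out.

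Summits were compared with GENCODE vM1 genes and exons. Where a summit lay in several genes (36 peaks), the host was the one with most RNA-seq counts. Copies were counted from 31-base words in the 101 bases on the summit, and alike peaks found with blastn 2.17.0. Frames were searched to 15000 nt each side. RefSeq starts and hairpins were located in mm9 by their sequence. Counts were tested with edgeR 4.0.16 (glmQLFit, TMM, filterByExpr, two-sided, Benjamini-Hochberg over all genes tested, threshold 0.05), after a check on simulated counts, with R 4.3.3. DESeq2 1.42.0 and limma 3.58.1 on log2(TPM + 0.1) or log2(TPM + 1) were alternatives. A study fit with Ballgown was not repeated, since counts were at hand. Intervals are 95% Wilson for shares and order statistics for medians, and cover counting error only.

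Named genes follow a rule: the 10 peaks highest by fold and by q-value, genes with at least 4 intronic peaks, members of the gene lists, and the 5 largest rises and falls among hosts at adjusted p under 0.05 with 10 or more counts throughout 1 group and no overlap. That rule limited sequences to the top peaks and list members, and the 4 sequences without exon bases go beyond it. The members, lists and classes were chosen with earlier results of these data known. Replicate numbers did not pair samples across groups (correlation of deviations 0.03, 2 pairs).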

Additional observations from a re-analysis of the deposited data

How the results depend on the processing

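The peak list has no replicates, so none of its values could be left out by sample, and no deposited peaks overlapped, so merging them changed nothing. The median fold enrichment ran from 5.05 to 5.71 over 8 alternatives and left its interval (5.13 to 5.78) without multi-copy peaks, at 5.05. The intronic share was 2.83% with no exon base in the peak, 2.96% without summits under 100 nt from an exon, 4.45% above the median q-value and 5.75% with each host counted once. The share within 500 nt of an exon, 53.8%, was 14.6%, 18.3%, 63.7% and 65.8% in the same order. The first-intron share was 51.4% with no exon base, 51.5% without summits under 100 nt from an exon and 40.0% per host. Hosts with an exonic peak made up 40.8%, 42.7% and, above the median q-value, 42.0%. Leaving out multi-copy peaks, an alternative chosen after seeing the data, gave an intronic share of 3.82% and 77.8% within 500 nt. The 18 five-base sequences gave −1.41 points for peak minus adjoining windows and 0.38 for gene minus opposite strand, where GGAC gave 4.61 and 6.77.

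Over all genes, limma called 2942 and 3013 with pseudocounts of 0.1 and 1, against 4677. The hosts' median log2 fold change was then 0.19 and 0.18, beside a median over all genes of 0.10 and 0.09. Hosts with no exon base in the peak had 51 called and a median of 0.14, and hosts without an exonic peak 54 and 0.0072, both from fewer genes. Leaving out 1 library gave 1867 to 8750 genes and 43 to 233 hosts, with host medians of 0.06 to 0.11. The hosts called were 233 without WT replicate 1, 210 without WT replicate 2, 44 without cKO replicate 1 and 43 without cKO replicate 2, the lone sample being assumed to vary like the other group. The fit with the replicate block called 4881 genes and 134 hosts, with a median of 0.09. Of 370 checks on 38 named genes, 314 kept direction and side of the threshold, 24 lost the call, 17 gained it and 15, on 10 genes, changed sign. In 1 of the 15, Dgkz without WT replicate 2, the changed value passed the threshold. With limma at pseudocounts of 0.1 and 1, log2 fold changes turned to 0.054 and 0.049 in Igf2bp2, 0.12 and 0.12 in Rbm39 and 0.0043 and 0.0042 in Snx6. With 1 library left out they ran from −0.080 to 0.15 in Dgkz, −0.011 to 0.089 in Cstf1, −0.0037 to 0.047 in Galnt11, −7.19 to 7.15 in Gm20388 (counted in 1 sample of each group only), −0.082 to 0.51 in Lphn3, −0.015 to 0.18 in Rsrc1 and −0.078 to 0.023 in Mettl3. The cause was not tested.

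Many intronic peaks rest on few fragments, the m6A libraries' totals are unknown, and multi-copy sequences cannot be placed at 1 locus. With 2 samples a group, calls for single hosts follow which library is kept.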
